A study of Mus musculus with 8 samples.

Results

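The nuclear receptors for progesterone, estrogen, glucocorticoid and mineralocorticoid hormones, 2 membrane-associated progesterone receptor components and 2 coactivators were examined in whole mouse uteri with and without a Foxa2 deletion. These 9 genes were chosen by name from the 19938 genes that the array platform's annotation pairs with a single symbol, and each was read by 1 probe set. They were Pgr, Esr1, Esr2, Nr3c1, Nr3c2, Pgrmc1, Pgrmc2, Ncoa1 and Ncoa2. The mutant group held 4 females of genotype PgrCre/+ Foxa2flox/flox, in which Cre recombinase sits in 1 allele of Pgr and is made in cells that use this gene. The control group held 4 females of genotype Pgr+/+ Foxa2+/+, with neither Cre nor floxed alleles. All 8 had been mated to vasectomised males, and their uteri were taken on day 3.5 of pseudopregnancy, a state with the hormones of early pregnancy and no embryos. Each uterus gave 1 array. Since Pgr was altered in the mutants only, the effects of the Foxa2 deletion, of Cre and of the disrupted Pgr allele cannot be told apart. Pgr is also known to be active in the ovary and pituitary, and circulating hormones were not analysed here.

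Steroid receptors are transcription factors that wait in a complex with heat shock proteins, bind their hormone, settle on DNA and recruit coactivators such as the NCOA proteins. In the uterus of early pregnancy, progesterone acting through PGR restrains the growth that estrogen drives in the epithelium through ESR1, and prepares the stroma for implantation. PGRMC1 and PGRMC2 are heme-binding membrane proteins of a separate family, linked to rapid actions of progesterone and to heme and steroid handling in the cell. FOXA2, the product of the deleted gene, is a forkhead protein that glandular epithelium of the endometrium uses. In whole tissue, fewer cells of a type and less RNA per cell cannot be told apart.

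The promoters of the 3 genes whose level passed the test below are shown so that their sequence can be read beside the values. They are RefSeq windows of GRCm38.p6 in the direction of transcription, 250 bases before to 50 after the gene start. Capitals mark the forkhead core TGTTTA, the progesterone and corticoid receptor monomer site AGAACA and the estrogen receptor monomer site GGTCA, each searched on both strands with no overlap found between them.
Pgr, chr9:8899583-8899882, plus strand: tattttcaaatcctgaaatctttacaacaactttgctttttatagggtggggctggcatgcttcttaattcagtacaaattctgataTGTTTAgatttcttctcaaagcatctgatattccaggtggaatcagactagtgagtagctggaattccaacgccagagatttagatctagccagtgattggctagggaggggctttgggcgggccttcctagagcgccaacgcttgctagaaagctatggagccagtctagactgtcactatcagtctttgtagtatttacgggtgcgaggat
Esr2, chr12:76177210-76177509, minus strand: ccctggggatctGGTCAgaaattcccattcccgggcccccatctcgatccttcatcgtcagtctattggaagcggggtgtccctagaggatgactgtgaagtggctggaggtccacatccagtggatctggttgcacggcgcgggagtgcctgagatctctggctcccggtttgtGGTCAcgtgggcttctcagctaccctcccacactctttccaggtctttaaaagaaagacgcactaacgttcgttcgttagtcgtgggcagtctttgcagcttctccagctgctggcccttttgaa
Pgrmc2, chr3:41082997-41083296, minus strand: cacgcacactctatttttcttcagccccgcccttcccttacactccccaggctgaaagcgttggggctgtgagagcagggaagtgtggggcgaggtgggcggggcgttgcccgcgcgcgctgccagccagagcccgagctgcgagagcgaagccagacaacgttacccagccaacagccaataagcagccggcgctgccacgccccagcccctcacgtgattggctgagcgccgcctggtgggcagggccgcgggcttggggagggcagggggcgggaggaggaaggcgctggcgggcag

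The Pgr window held 1 forkhead core, at bases 88 to 93, and neither of the other letters. The Esr2 window held GGTCA at bases 13 to 17 and again at bases 176 to 180, and the Pgrmc2 window held none of the 3. Over all 32851 windows of the table, 13.4% held TGTTTA, 19% held AGAACA and 40.5% held GGTCA. A match of letters is a description of the window and was not tested as a binding site.

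Pgrmc2 was lower in the Foxa2-deleted uteri, Pgr and Esr2 were higher, and the other 6 genes did not pass the test. All levels are log2 intensities as deposited by the authors, and differences are Foxa2-deleted minus control from limma, with p adjusted by Benjamini-Hochberg over all 19938 genes and a threshold of 0.05. Of all genes tested, 2209 (11.1%) passed, 898 (4.5%) higher and 1311 (6.58%) lower. Of the 9 receptors and coregulators 3 passed, namely 1 lower and 2 higher. Only Pgrmc2 passed in the fits that left out a control or Foxa2-deleted replicate 1, and over all genes the share past the threshold ranged from 2.79% to 15.3% as single arrays were left out. At an unadjusted p under 0.05 they were 4 of 9, with Ncoa2 added, beside 31.5% of all genes. Their median difference was -0.05, against 0.01 over all genes. The 4 values of each genotype were separated for the same 3 genes, as they were for 21.1% of all genes.

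Pgr encodes the nuclear progesterone receptor. Its level was 11.73, 11.35, 11.51 and 11.81 on Foxa2-deleted replicates 1 to 4, against 11.15, 11.27, 11.24 and 11.26 on control replicates 1 to 4. All mutants lay above all controls, replicates 1 and 4 far above them and replicate 2 closest. The mean was 11.60 ± 0.21 in Foxa2-deleted uteri and 11.23 ± 0.05 in controls (SD, n = 4 each), 1.29-fold higher in the mutants (log2 difference 0.37, SE 0.10, 95% interval 0.15 to 0.59, limma adjusted p = 0.0428). Pgr was therefore higher in the animals that carried 1 Pgr allele interrupted by Cre. Whether the probe set also reads transcript of the interrupted allele was not tested, and 1 probe set does not separate the receptor's isoforms. Omitting a single control ended the call, whichever it was (adjusted p from 0.0928 to 0.105), as did omitting Foxa2-deleted replicate 1 (0.0981) or replicate 4 (0.0547). It also ended under repeated quantile normalisation (0.0684), cyclic loess (0.0534), all probe sets tested (0.0576) and the replicate block (0.0777).

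Pgrmc2, a heme-binding protein gene of the PGRMC pair, showed the lowest adjusted p of the 9 genes. Its level was 9.28, 9.37, 9.19 and 9.29 on Foxa2-deleted replicates 1 to 4, against 9.55, 9.73, 9.70 and 9.71 on control replicates 1 to 4. Every mutant was below every control, and the mutants lay as close together as the controls did. The mean was 9.28 ± 0.07 in Foxa2-deleted uteri and 9.67 ± 0.08 in controls (SD, n = 4 each), 1.31-fold lower in the mutants (log2 difference -0.39, SE 0.06, 95% interval -0.52 to -0.26, limma adjusted p = 0.00789). This call held without each array in turn, with adjusted p up to 0.0351.

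Pgrmc1, the paralogue of Pgrmc2, stood at 11.08, 11.20, 10.84 and 11.24 on Foxa2-deleted replicates 1 to 4, against 11.08, 11.15, 11.08 and 11.16 in controls. The groups overlapped, with Foxa2-deleted replicate 3 below every control and replicates 2 and 4 above every control (log2 difference -0.03, 95% interval -0.22 to 0.16, limma adjusted p = 0.846). After the values were seen, the unequal change of the pair was examined on the difference Pgrmc2 minus Pgrmc1 within each array. That difference was -1.80, -1.83, -1.65 and -1.95 in Foxa2-deleted uteri, against -1.53, -1.42, -1.38 and -1.45 in controls. It was lower in 4 of 4 mutants than in any control, by 0.36 on average. A two-sided exact permutation test gave p = 0.0286, the smallest that 70 arrangements of 4 and 4 arrays can give, and p = 0.114 after adjustment over the 4 paralogue pairs examined. With that correction the pair did not pass, which 1 pair alone could not do at this size. Neither did Ncoa2 minus Ncoa1 (adjusted p = 0.229), Esr2 minus Esr1 (0.267) or Nr3c2 minus Nr3c1 (0.829) by the same exact test. The pairs were chosen with the values known, so these p give no independent support.

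**Figure D1:**
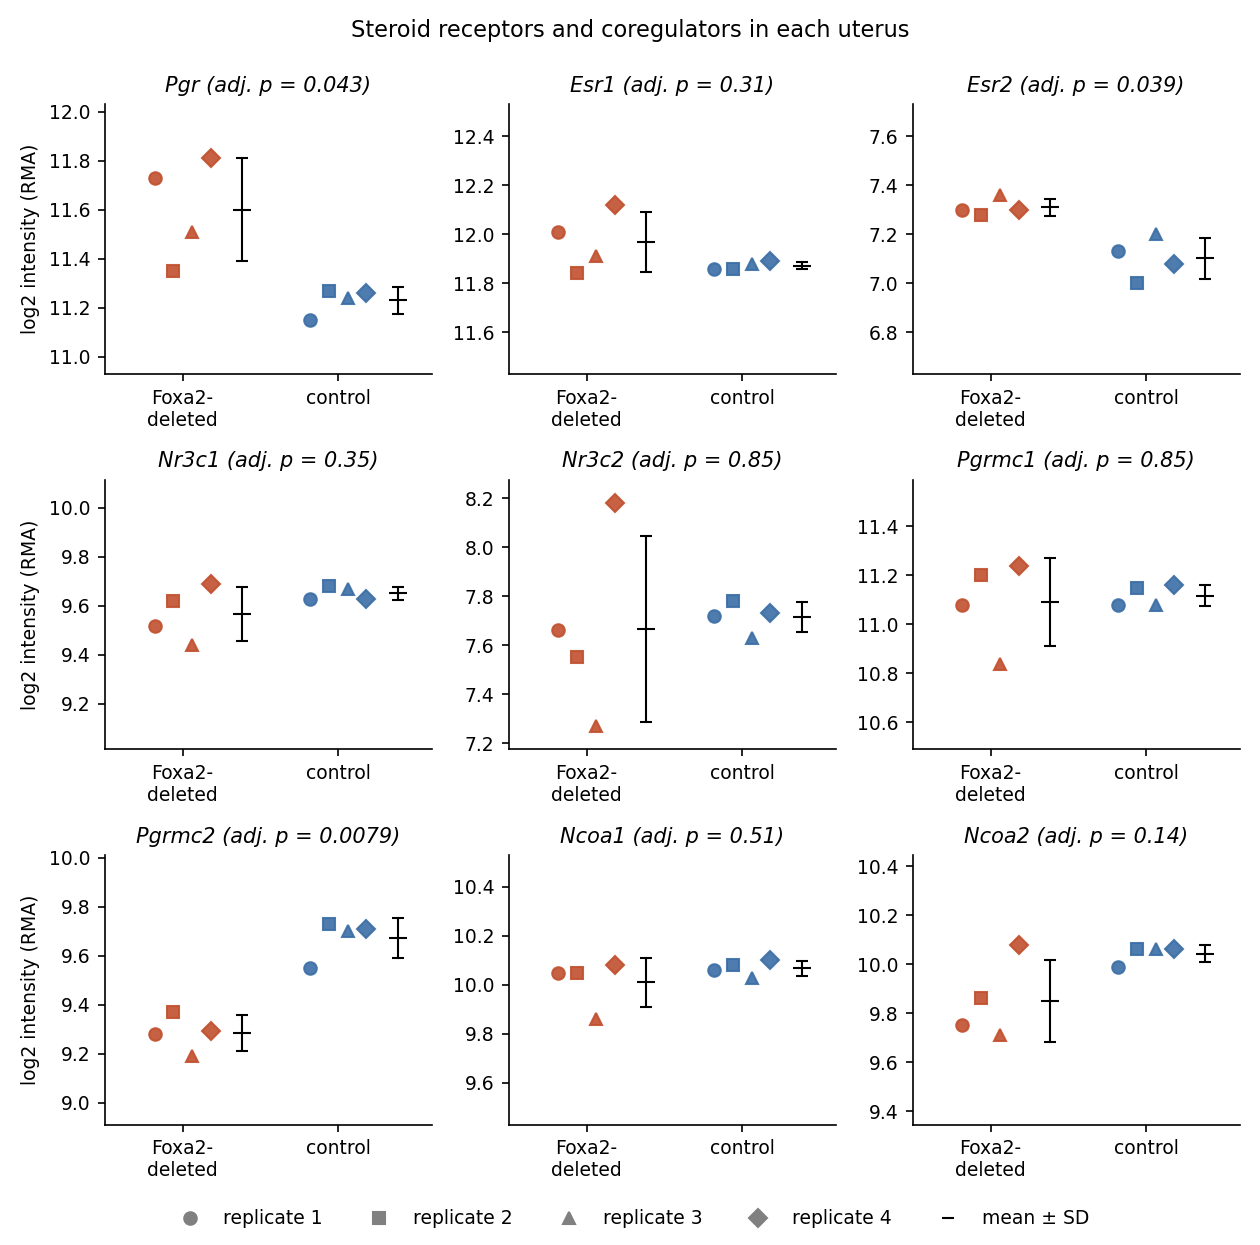
Log2 intensity of the 9 genes on each array, with Foxa2-deleted uteri in orange on the left of each panel and controls in blue on the right; marker shape gives the replicate number, black bars are mean ± SD (n = 4 each), and every vertical axis spans the same range. The groups are separated for Pgr, Esr2 and Pgrmc2, and Foxa2-deleted replicates 3 and 4 lie far apart for Nr3c2.

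Esr2 encodes estrogen receptor beta. Its level was 7.30, 7.28, 7.36 and 7.30 on Foxa2-deleted replicates 1 to 4, against 7.13, 7.00, 7.20 and 7.08 on control replicates 1 to 4. The mutants were all higher and were the tighter group. The mean was 7.31 ± 0.03 in Foxa2-deleted uteri and 7.10 ± 0.08 in controls (SD, n = 4 each), 1.15-fold higher (log2 difference 0.21, SE 0.05, 95% interval 0.09 to 0.33, limma adjusted p = 0.0394). Esr2 lay among the dimmest 25% of genes by mean level, where no detection call is given, so its distance from background is unknown. Leaving out a control, whichever it was, ended the call (adjusted p from 0.0525 to 0.11), as did a fit without Foxa2-deleted replicate 1 (0.0798) or 3 (0.0718) and under repeated quantile normalisation (0.111), cyclic loess (0.113), all probe sets tested (0.0534) or the replicate block (0.0632).

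Esr1 encodes estrogen receptor alpha, the receptor through which the uterus grows under estrogen. Its level was 12.01, 11.84, 11.91 and 12.12 on Foxa2-deleted replicates 1 to 4, against 11.86, 11.86, 11.88 and 11.89 in controls. Mutants lay on both sides of the narrow control range, and the difference of 0.10 did not pass (95% interval -0.04 to 0.24, limma adjusted p = 0.31). An increase of more than 1.18-fold and a decrease of more than 1.03-fold lie outside this interval.

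The receptors for corticoids did not pass. Nr3c1, the glucocorticoid receptor gene, was at 9.52, 9.62, 9.44 and 9.69 on Foxa2-deleted replicates 1 to 4, against 9.63, 9.68, 9.67 and 9.63 in controls (log2 difference -0.09, 95% interval -0.22 to 0.05, limma adjusted p = 0.349). Foxa2-deleted replicates 1, 2 and 3 lay below every control and replicate 4 just above them. Nr3c2, the mineralocorticoid receptor gene, was at 7.66, 7.55, 7.27 and 8.18 on Foxa2-deleted replicates 1 to 4, against 7.72, 7.78, 7.63 and 7.73 in controls. It spread most of the 9 genes among the mutants, with replicates 2 and 3 below and replicate 4 above every control (SD 0.38 in Foxa2-deleted uteri and 0.06 in controls). Its mean difference of -0.05 has a wide interval, -0.42 to 0.32 (limma adjusted p = 0.855), and turned to 0.08 without Foxa2-deleted replicate 3.

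The coactivator genes Ncoa1 and Ncoa2 encode SRC-family proteins that bind hormone-loaded receptors. Ncoa2, needed in mouse Pgr-expressing uterine cells for the decidual response, was at 9.75, 9.86, 9.71 and 10.08 on Foxa2-deleted replicates 1 to 4, against 9.99, 10.06, 10.06 and 10.06 in controls. Replicates 1, 2 and 3 were below every control and replicate 4 was above them all. Its difference of -0.19 (SE 0.08, 95% interval -0.37 to -0.01) did not pass over all genes (limma adjusted p = 0.135), and without Foxa2-deleted replicate 4 it was -0.27 and passed (adjusted p = 0.0208). Ncoa1 was at 10.05, 10.05, 9.86 and 10.08 on Foxa2-deleted replicates 1 to 4, against 10.06, 10.08, 10.03 and 10.10 in controls. Only Foxa2-deleted replicate 3 lay outside the control range (log2 difference -0.06, 95% interval -0.19 to 0.07, limma adjusted p = 0.508).

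**Figure D2:**
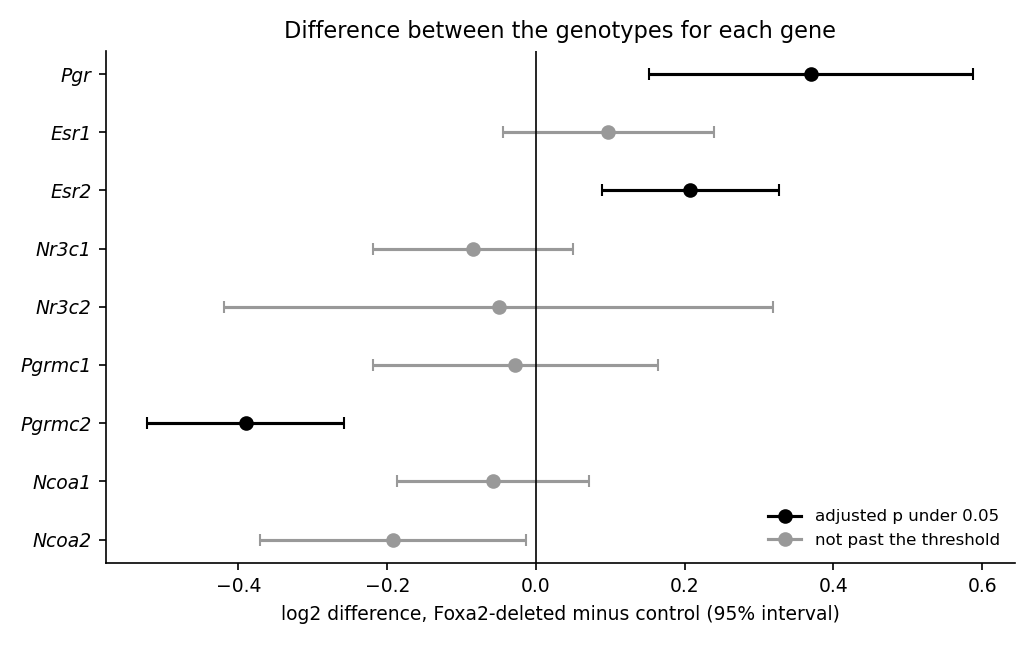
Log2 difference between the genotypes, Foxa2-deleted minus control, for each of the 9 genes, with 95% intervals from limma's moderated fit; black points passed an adjusted p of 0.05 and grey points did not. Pgr (0.37) and Esr2 (0.21) lie to the right of 0, Pgrmc2 (-0.39) lies to the left, and Nr3c2 has the widest interval.

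The SD was larger in Foxa2-deleted uteri than in controls for 7 of the 9 genes, the exceptions being Esr2 and Pgrmc2, a share close to the 70.3% of all genes with a larger SD in the mutants. The median SD of the 9 genes was 0.122 in Foxa2-deleted uteri and 0.043 in controls, beside 0.103 and 0.070 over all genes. Foxa2-deleted replicate 4 was the highest mutant in 7 of the 9 genes, all but Esr2 and Pgrmc2. Replicate 3 was the lowest in 6 of them, namely both corticoid receptors, both PGRMC genes and both coactivators. Replicate 2 was the lowest in Pgr, Esr1 and Esr2, the 3 genes with a positive difference. The correlation between arrays across probe sets, which are not independent replicates, was lowest between Foxa2-deleted replicate 3 and the controls, at 0.9717 to 0.9764. Exact permutation tests for each gene gave p = 0.0286 for Pgr, Esr2 and Pgrmc2 (two-sided, the smallest possible), which is 0.135 after adjustment over all 19938 genes, and p from 0.143 to 0.914 for the other 6. With 4 arrays a group, this test could pass that adjustment only if most genes of the table were separated between the genotypes, which was so for 21.1%.

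Genes whose pattern over the 8 arrays lay closest to those that passed were found by the root mean square difference between deviations from the control mean. Symbols of Gm with a number, or ending in Rik, were passed over. The measure includes the mean difference between the genotypes, so close genes also have a similar difference. For Pgr these were Stard10, a lipid transfer protein gene (0.061), Ctr9 of the PAF complex (0.064) and Apba1, an adaptor gene (0.065). For Esr2 they were the keratin gene Krt4 (0.025), the olfactory receptor gene Olfr476 (0.034) and the meiotic kinetochore gene Meikin (0.035). Olfr476 and Meikin did not pass themselves (limma adjusted p = 0.0526 and 0.0586). For Pgrmc2 they were the glutathione pathway gene Ggct (0.045), Lrrc28 (0.050) and the phosphoinositide phosphatase gene Ocrl (0.052).

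In the wider machinery around the receptors few genes passed. Of 18 other coactivator genes measured 2 fell and none rose, leaving 16 that did not pass. The share called, 11.1%, equals that of all genes called in either direction, while 6.58% of all genes fell. The median difference was -0.10 against 0.01 over all genes. The 2 that fell were Trim24, a cofactor of nuclear receptors (log2 difference -0.37, SE 0.09, limma adjusted p = 0.0319), and the RNA helicase gene Ddx17 (-0.20, SE 0.05, adjusted p = 0.0433). The count was 0 without any 1 control or without Foxa2-deleted replicate 1 or 3, and 4 without replicate 4. In limma's test 0 of 13 corepressor genes passed, beside 11.1% of all genes, and 7 had an unadjusted p under 0.05, beside 31.5% of all genes. Differences were negative for 8 of the 13 and positive for 5, with a median of -0.04. The 2 of smallest p, given next, were both among the positive ones. Nrip1, a corepressor induced by estrogen, was at 10.30, 10.21, 10.40 and 10.14 in Foxa2-deleted uteri, against 10.03, 10.06, 10.14 and 10.01 in controls (difference 0.20, limma adjusted p = 0.0718). The atypical receptor gene Nr0b2, a repressor of other receptors, differed by 0.15 (limma adjusted p = 0.0805). Without Foxa2-deleted replicate 4, 2 corepressors passed, Nrip1 among them.

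Among 16 chaperones and co-chaperones of receptor complexes 1 fell and 15 did not pass, and this 6.25% is close to the 6.58% of all genes that fell. This was Fkbp5, an immunophilin that lowers hormone binding by the glucocorticoid receptor and is itself induced by progesterone and glucocorticoid. Its level was 8.75, 8.88, 8.26 and 8.09 on Foxa2-deleted replicates 1 to 4, against 9.19, 9.24, 9.19 and 9.21 in controls (log2 difference -0.71, SE 0.16, limma adjusted p = 0.0279). All mutants were below all controls, replicates 3 and 4 the furthest, and omitting any single control ended the call (highest adjusted p 0.0816). None of 9 membrane steroid receptors and PGRMC relatives passed, beside 11.1% of all genes. At an unadjusted p under 0.05 there was 1, beside 31.5% of all genes. That one was Cyb5d2, a relative of the PGRMC genes, with a difference of -0.14 (limma adjusted p = 0.0859), and the membrane progestin receptor gene Paqr8 followed with -0.22 (0.163).

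Of 39 other nuclear receptors 2 fell and 37 did not pass (median -0.04), which is 5.13% of the list, below the 11.1% of all genes. Nr5a2, an orphan receptor needed in mouse for uterine decidualisation, was at 7.58, 7.93, 7.69 and 7.68 on Foxa2-deleted replicates 1 to 4, against 8.10, 8.21, 8.14 and 8.29 in controls. The groups were separated (log2 difference -0.46, SE 0.08, limma adjusted p = 0.0123), and the call held without each array in turn, with adjusted p up to 0.0468. Nr2f2, the COUP-TFII gene of the uterine stroma, acts downstream of epithelial progesterone signalling and fell by 0.41 (SE 0.10, limma adjusted p = 0.0341). That call ended when a control or Foxa2-deleted replicate 1 was omitted (highest adjusted p 0.0995). Across the list, 5 of the 39 genes passed without Foxa2-deleted replicate 2, and 1 did in 4 other fits with an array left out (controls 2, 3 and 4, and mutant 1).

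**Figure D3:**
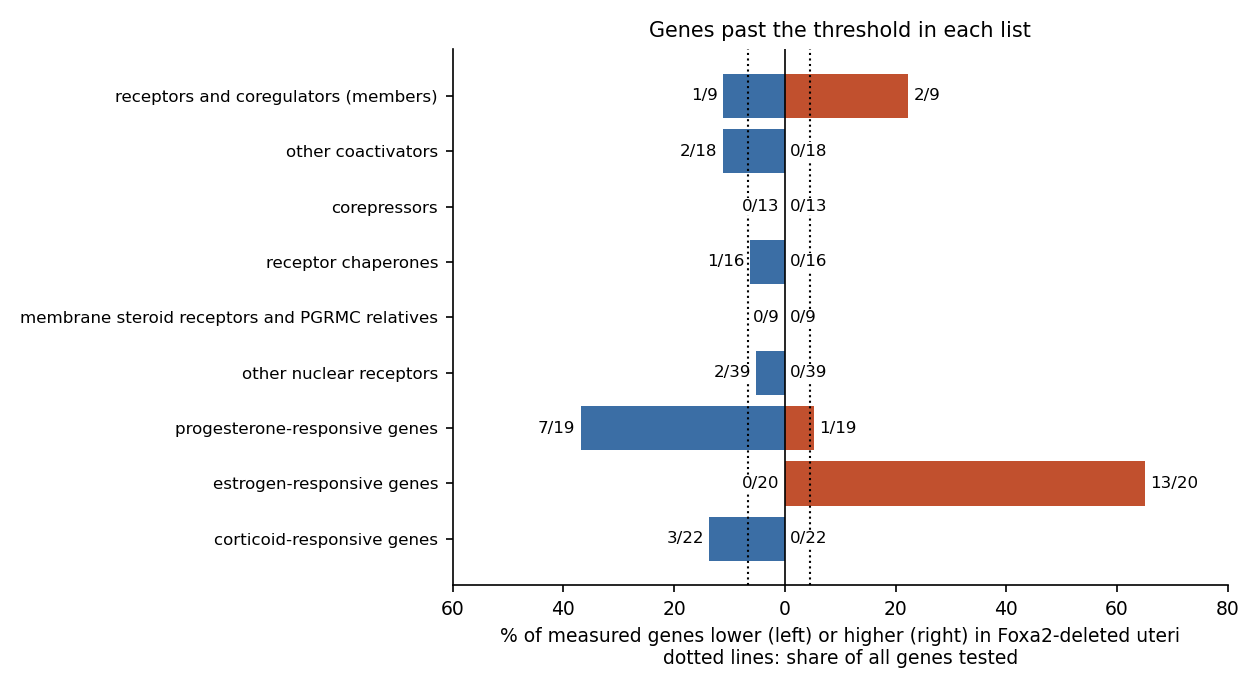
Percent of the measured genes of each list that were higher (orange, right) or lower (blue, left) in Foxa2-deleted uteri at an adjusted p under 0.05, with counts beside the bars; dotted lines mark the 4.5% and 6.58% of all genes tested. Receptor chaperones, corepressors and other nuclear receptors hold 1, 0 and 2 such genes, while 13 of 20 estrogen-responsive genes are higher and 7 of 19 progesterone-responsive genes lower. The lists were chosen with earlier results of these data known.

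Genes that respond to the receptors' ligands were read from 3 lists. These were chosen with earlier results of these data known, so their counts describe the data and are not independent support. Of 19 progesterone-responsive genes 7 fell, 1 rose and 11 did not pass, with a median of -0.63, while of all genes 6.58% fell and 4.5% rose. Fst, an activin antagonist (log2 difference -1.40, SE 0.30, limma adjusted p = 0.0238), Ihh, the epithelial hedgehog ligand (-0.75, SE 0.16, 0.0254), and the zinc finger gene Zbtb16 (-1.46, SE 0.33, 0.0278) were lower. Wnt4, a stromal signal of decidualisation, was higher (0.39, SE 0.08, limma adjusted p = 0.0228). Relative to the control mean, this list averaged -0.80, -0.05, -0.77 and -0.66 on Foxa2-deleted replicates 1 to 4, while Pgr lay at 0.50, 0.12, 0.28 and 0.58 and Pgrmc2 at -0.39, -0.30, -0.48 and -0.38. The count of 8 became 0 without any 1 control, in fits where 2.79% to 5.57% of all genes passed, and 3, 13, 6 and 11 without Foxa2-deleted replicates 1 to 4.

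Of 20 estrogen-responsive genes 13 rose and 7 did not pass (median 1.79), beside 4.5% of all genes that rose, led by the iron-binding protein genes Lcn2 and Ltf, the chloride channel regulator Clca1 and the mucin Muc4, with differences of 4.25, 4.17, 4.54 and 3.71. The list averaged 1.89, 1.55, 2.39 and 1.66 above the control mean on Foxa2-deleted replicates 1 to 4. On the same arrays Esr1 lay at 0.14, -0.03, 0.04 and 0.25 and Esr2 at 0.20, 0.18, 0.26 and 0.20. The list mean was raised on every mutant array, and whether it followed the level of either receptor was not tested. Not every gene of the list rose, since 17 of the 20 differences were positive and 3 negative. The lowest was -0.70, and none fell past the threshold. The count stayed between 12 and 15 with any 1 array left out.

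Of 22 corticoid-responsive genes 3 fell and 19 did not pass (median -0.09). The share called was 13.6%, beside 11.1% of all genes called in either direction and 6.58% that fell. At an unadjusted p under 0.05 there were 12 of the 22, beside 31.5% of all genes. Differences were negative for 14 genes of the list and positive for 8. The 3 were Zbtb16, Fkbp5 and the metallothionein gene Mt1 (log2 difference -0.80, SE 0.19, limma adjusted p = 0.0309). Zbtb16 and Fkbp5 also stand in the progesterone list. Fkbp5 is counted among the chaperones as well, and Nr2f2 among both the other nuclear receptors and the progesterone-responsive genes. Hoxa11 is both a stromal marker and in the progesterone list, and Nr0b2 is listed with both the corepressors and the other nuclear receptors. Counts of different lists are therefore not independent. The corticoid-responsive list averaged -0.12, 0.01, -0.21 and -0.39 on Foxa2-deleted replicates 1 to 4, beside Nr3c1 at -0.13, -0.03, -0.21 and 0.04 and Nr3c2 at -0.06, -0.17, -0.45 and 0.47. On replicate 4 the list was lowest while both receptors were at their highest among the mutants. On replicate 3 the list was also below the control mean, at -0.21, while both receptors were at their lowest. Whether the list followed the level of either receptor was not tested. The count became 0 without any 1 control, and was 2, 9, 4 and 6 in the fits without Foxa2-deleted replicate 1, 2, 3 and 4.

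**Figure D4:**
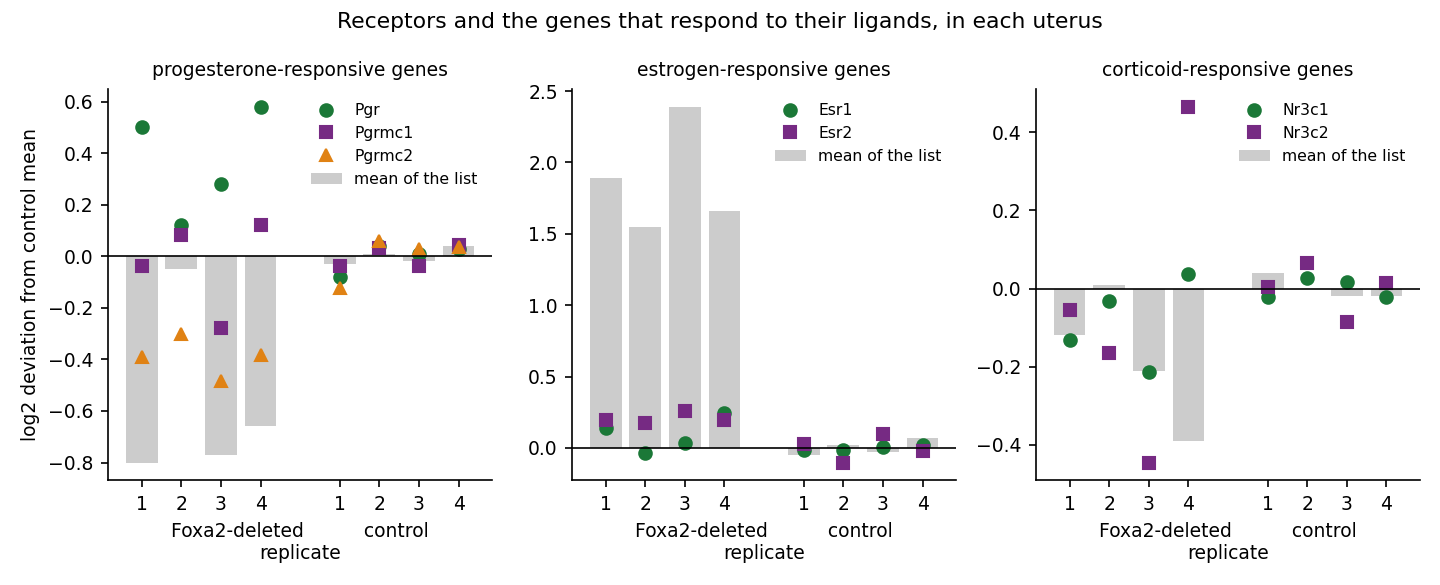
Log2 deviation from the control mean on each array, Foxa2-deleted replicates 1 to 4 on the left of each panel and control replicates 1 to 4 on the right; grey bars are the mean over a list of hormone-responsive genes and coloured points are receptor genes, and the panels have separate vertical scales. Pgr points lie above 0 on all 4 mutants. The progesterone-responsive bars of the mutants lie below 0, but on replicate 2 (-0.05) close to the control bars (-0.03 to 0.04). The estrogen-responsive bars reach 1.55 to 2.39 on the mutants while the Esr1 and Esr2 points of the mutants stay between -0.03 and 0.26.

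Cell type markers moved between the genotypes as well, and their part in the receptor levels was not tested. Of all genes 4.5% rose and 6.58% fell, beside which the marker counts stand. The deleted gene Foxa2 stood at 8.20 to 8.22 in Foxa2-deleted uteri and 8.61 to 8.82 in controls, so the arrays followed their labels. Of 8 gland markers 5 fell, 1 of them Foxa2 itself, whose loss the design set, so that 4 of the other 7 fell, among them Cxcl15, Spink1 and Ttr (log2 differences -3.98, -4.28 and -1.22), and the log2 of the summed level of all 8 ranged from 10.59 to 11.26 in Foxa2-deleted uteri and 11.76 to 12.43 in controls. Of 11 epithelial markers 5 rose, with Krt19, Elf3, Krt7 and Krt8 in front (1.86, 1.77, 1.52 and 0.93), and the sum ranged from 14.17 to 15.11 in Foxa2-deleted uteri and 13.63 to 13.83 in controls. The rise was not uniform, since 9 of the 11 differences were positive and 2 negative, the lowest -0.47, though none fell past the threshold. Of 10 endothelial markers 6 fell, with Pecam1, Tie1, Egfl7 and Esam in front (-0.66, -0.70, -0.62 and -0.81), and sums of 13.12 to 13.79 in Foxa2-deleted uteri and 14.06 to 14.15 in controls. Of 12 leukocyte markers 4 fell, including Klrb1c, Ncr1 and Nkg7 (-1.17, -1.23 and -1.10), and 1 rose, Ly6g (1.21), with sums of 12.54 to 13.09 in Foxa2-deleted uteri and 12.83 to 13.31 in controls.

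Markers of stroma, muscle and neighbouring tissues followed. In limma's test 0 of 11 stromal markers passed, beside 11.1% of all genes, and 4 had an unadjusted p under 0.05, beside 31.5% of all genes. The stromal sums were 15.42 to 15.66 in Foxa2-deleted uteri and 15.55 to 15.57 in controls. The nearest were Hoxa11 (-0.63, limma adjusted p = 0.0772) and Pdgfra (-0.32, 0.0805). Of 10 smooth muscle markers 1 rose, Actg2 (0.51), a share of 10% beside the 4.5% of all genes that rose and the 11.1% called in either direction. All 10 had positive differences, and sums were 15.12 to 15.61 in Foxa2-deleted uteri and 15.07 to 15.22 in controls. None of 7 ovary and oviduct markers passed or had an unadjusted p under 0.05, beside 11.1% and 31.5% of all genes. Cyp11a1 and Fshr stood nearest (differences 0.14 and 0.12). Sums of the 7 markers were 10.43 to 10.63 in Foxa2-deleted uteri and 10.44 to 10.49 in controls. Of 7 mesothelial and fat markers 1 rose, Krt14 (0.29), with sums of 12.32 to 12.94 in Foxa2-deleted uteri and 12.15 to 12.67 in controls. The fat markers Adipoq, Plin1 and Lep had larger differences (1.10, 0.77 and 0.50) but did not pass (limma adjusted p = 0.146, 0.178 and 0.365). The mesothelial markers Msln, Upk3b and Wt1 differed by 0.14, -0.10 and -0.24 and did not pass either. Leaving out 1 array at a time moved the counts to between 3 and 9 for epithelium, 3 and 9 for endothelium, 2 and 6 for leukocytes, 0 and 5 for stroma and 0 and 4 for smooth muscle, and to 0 in each such fit for mesothelium and fat. The deposited values carry no detection calls, so whether a marker is present cannot be read from them.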

How the data were processed

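Whole-uterus RNA of 8 mice, 150 ng each, was labelled with biotin and measured on 1 array per uterus, per the labels' protocols. The values are the authors' deposited log2 intensities, made with RMA, per the submitters' processing notes, which also name limma. Neither versions nor the genome build are stated in the sources used here. RMA shrinks dim probe sets towards a floor, so that differences of dim genes are understated. Array medians lay between 8.25 and 8.32, and precision is limited by how many arrays there are.

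Of 35556 probe sets 21789 had 1 symbol in the platform annotation held by GEO, 1621 several and 12146 none. The brightest probe set per gene on average gave 19938 genes, which were fitted with lmFit and eBayes in limma 3.58.1 (R 4.3.3) with genotype as the sole coefficient. Adjusted p are Benjamini-Hochberg over these genes, with a threshold of 0.05, and SE and 95% intervals are from the moderated fit. The steps were tested on simulated data. Members, gene lists and the naming rule were chosen with earlier results of these data known. The genes named are the 9 members, up to 4 genes with the smallest adjusted p past the threshold in each list (if none passed, the 2 of smallest p), the 3 most similar patterns per gene that passed, and Foxa2. The other mesothelial and fat markers are named as well. The paralogue pairs were added after the values were seen. Promoter windows were matched by symbol for 7 of the 9 genes. Some list genes were not analysed here. Replicates are separate mice per the labels. Alternatives covered scaling, filters on dim genes, the variance model, a replicate block and leaving out each array.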

Additional observations from a re-analysis of the deposited data

Results flagged for a closer look

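Of 98 groups of 4 arrays examined for a value far from the other 3, 5 had one, where chance flags about 1 in 20. In Pgrmc2 control replicate 1 was low, at 9.55 against 9.70 to 9.73 in the other controls. In Ncoa1 Foxa2-deleted replicate 3 was low, at 9.86 against 10.05 to 10.08. In Ncoa2 control replicate 1 was low, at 9.99 against 10.06 in each of the others. In the gland marker Cxcl15 Foxa2-deleted replicate 3 was high, at 6.25 against 5.96 to 5.97. In the stromal gene Hoxa11 control replicate 4 was high, at 10.66 against 10.57 to 10.58.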

How the results depend on the processing

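The 9 members kept their direction under the 10 alternatives other than leaving out an array, wherever they were measured, and Pgrmc2 also kept its call throughout. Pgr lost its call under repeated quantile normalisation (0.34), cyclic loess (0.36), all probe sets tested (0.37) and the replicate block (0.37), and Esr2 under the same 4 (0.16, 0.15, 0.21 and 0.21), which left 1 member called each time. Esr2 was not in the table once the dimmest 25% of genes were left out, nor Nr3c2 once the lower 50% were. With 1 array left out, the differences ranged from 0.30 to 0.45 for Pgr, 0.05 to 0.14 for Esr1, 0.17 to 0.24 for Esr2, -0.13 to -0.04 for Nr3c1, -0.22 to 0.08 for Nr3c2, -0.08 to 0.06 for Pgrmc1, -0.43 to -0.36 for Pgrmc2, -0.08 to -0.01 for Ncoa1 and -0.27 to -0.15 for Ncoa2. The members called ranged from 1 to 3, and the direction of Nr3c2 (0.08) and Pgrmc1 (0.06) turned without Foxa2-deleted replicate 3. Genes called over all ranged from 556 to 3059, other coactivators from 0 to 4, corepressors from 0 to 2, receptor chaperones from 0 to 2, other nuclear receptors from 1 to 5, progesterone-responsive genes from 0 to 13, estrogen-responsive genes from 12 to 15 and corticoid-responsive genes from 0 to 9. Deviations of same-numbered arrays correlated between -0.051 and 0.057, within the range of differently numbered arrays, -0.142 to 0.121. No pairing by replicate number was seen, though so few arrays cannot exclude a factor shared by number. The replicate block gave 1062 genes over all, 0 other coactivators and 5 progesterone-responsive genes. Other coactivators numbered 1 with arrays centred on their median, 0 under cyclic loess and 1 with all probe sets tested. Array weights gave 1 corepressor and 6 corticoid-responsive genes, the mean of all probe sets of a gene gave 3 chaperones, and leaving out the lower 50% of genes gave 1 other nuclear receptor. The causes were not tested. Of the 32 genes named from the lists that passed, 17 did so with each array left out. The genes of similar pattern were not examined in this way. With 4 arrays a group, the members' intervals, and the lack of a detection call for dim genes such as Esr2, limit what can be read.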
